A study of Mus musculus with 8 samples.

Results

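Acute phase plasma protein genes, 10 in number, were followed in AML12 mouse hepatocytes with and without the VWA8 gene. They are Hp, Hpx, Saa1, Saa2, Saa3, Saa4, Apcs, Itih3, Itih4 and Ambp, chosen by name as proteins that liver secretes into plasma and whose levels are known from inflammation. Each gene was represented by the brightest probe set that the array annotation assigns to that gene alone. By this rule 9 of the 10 genes were measured, out of 22180 genes in all. Saa1 had no value of its own, since its probe set is annotated to Saa1 and Saa2 together.

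AML12 is a line of hepatocytes founded from the liver of a mouse carrying a TGF-alpha transgene. VWA8 is found in mitochondria and carries an ATPase domain. The wild-type group was 4 AML12 cultures and the knockout group 4 cultures, labelled VWA8-null, in which the gene had been deleted with CRISPR/Cas9. Cultures were separate and were differentiated before RNA was taken, and each gave 1 Affymetrix mouse array. Both groups grew in the same medium, which held serum (10%), insulin and transferrin (each at 0.005 mg/ml), selenium (5 ng/ml) and the synthetic glucocorticoid dexamethasone (40 ng/ml). The labels name no cytokine, so the comparison is between genotypes and not between resting and inflamed cells. How many clones the knockout cultures came from is not stated in the labels, and what is peculiar to a clone cannot be told apart from what the deletion did.

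In the acute phase response, interleukin 6 acts through its receptor, the shared subunit gp130 and STAT3, and interleukin 1 and TNF act through NF-kB. C/EBP factors and glucocorticoids cooperate with both arms on the promoters of hepatocyte genes. Positive acute phase proteins rise in plasma during inflammation and negative ones, such as albumin and transthyretin, fall. In the mouse, serum amyloid A from Saa1 and Saa2 and the pentraxin serum amyloid P, from Apcs, are known as strong positive reactants, whereas Saa4 is made constitutively and Saa3 is known mainly from macrophages and fat.

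All 4 serum amyloid A genes carry a C/EBP-like sequence near their start. The stretch around it is shown because Saa4 rose in these cells, while no change of Saa2 or Saa3 passed the test. Sequences are from RefSeq, assembly GRCm38.p6, written 5′ to 3′ on the strand of the gene. Capitals mark a match to TTGCNNAA in either orientation, within 30 bases, and in each gene the match nearest the start is shown.
Saa1 (chr7:46743144-46743173, minus strand): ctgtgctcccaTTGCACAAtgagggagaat
Saa2 (chr7:46751639-46751668, plus strand): ctgtgctcccaTTGCACAAtgagggaaaat
Saa3 (chr7:46715757-46715786, minus strand): ggtaagtgggaTTATGCAAgatcaaacagg
Saa4 (chr7:46732637-46732666, minus strand): accaggaaggaTTGAGCAAgagggactctg
Counting back from the base before the start as -1, the matches began at -182 in Saa1, -183 in Saa2, -99 in Saa3 and -52 in Saa4. Saa4 held another match, beginning at -245.

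The 250 bases before the start are printed for Saa4, which changed most, for Saa2, its dim relative, and for Apcs. The Apcs window held matches both to the STAT motif and to the interleukin 6 element. Capitals mark matches to any of the motifs searched, on both strands.
Saa4 (chr7:46732604-46732853, minus strand): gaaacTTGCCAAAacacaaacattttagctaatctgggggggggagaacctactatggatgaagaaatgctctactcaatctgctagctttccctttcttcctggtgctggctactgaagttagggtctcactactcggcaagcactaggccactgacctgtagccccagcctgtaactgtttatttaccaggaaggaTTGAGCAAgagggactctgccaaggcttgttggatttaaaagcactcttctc
Saa2 (chr7:46751583-46751832, plus strand): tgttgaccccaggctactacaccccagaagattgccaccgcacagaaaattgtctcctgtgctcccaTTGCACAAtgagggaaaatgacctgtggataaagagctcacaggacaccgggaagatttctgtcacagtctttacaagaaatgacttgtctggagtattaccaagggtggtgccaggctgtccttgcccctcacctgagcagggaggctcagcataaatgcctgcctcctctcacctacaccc
Apcs (chr1:172895055-172895304, minus strand): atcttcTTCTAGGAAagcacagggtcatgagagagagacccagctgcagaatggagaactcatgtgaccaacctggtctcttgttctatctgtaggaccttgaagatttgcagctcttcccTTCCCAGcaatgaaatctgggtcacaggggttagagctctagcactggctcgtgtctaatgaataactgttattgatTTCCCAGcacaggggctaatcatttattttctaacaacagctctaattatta

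Such windows were matched for 9 of the 10 members, all but Hp. The C/EBP motif TTGCNNAA was in 5 of the 9, namely the 4 Saa genes and Hpx, and in 9.56% of 32851 windows of the same length. The STAT motif TTCNNNGAA was in 2, Apcs and Itih4, against 7.02% of all windows. The interleukin 6 element CTGGGAA was in Apcs, where it matched at 2 places, against 9.10% of all windows. No match overlapped another. No member window held the NF-kB motif (1.41% of all windows), the HNF1 motif GTTAAT (6.43%), the HNF4 motif CAAAGTCCA (0.38%) or the glucocorticoid receptor motif (0.387%), which says only that these letters are not in these windows. The upstream windows of Saa1 and Saa2 were 94.8% identical over 251 aligned positions, whereas the other pairs of Saa windows were between 43.8% and 48.5% identical.

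Most of the measured acute phase genes were higher in the knockout. Of the 9, 6 rose (Hp, Hpx, Saa4, Apcs, Itih3 and Itih4), 1 fell (Ambp), and Saa2 and Saa3 did not pass a Benjamini-Hochberg adjusted p of 0.05 in limma. Over all genes 20.9% passed, 10.4% higher and 10.4% lower. The arrays of the 2 genotypes did not overlap for 7 of the 9 members and for 26.1% of all genes. The median log2 fold change was 0.66 over the 9 members and -0.003 over all genes. Of genes brighter than the median probe set, 35.1% passed, and 7 of the 8 members in that class did. The members were chosen with results of these data known, so these counts are a description and no test of the list.

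The deleted gene served as a check of the labels. The Vwa8 probe set read from 8.91 to 9.01 on the wild-type arrays and from 5.07 to 5.33 on the knockout arrays, a log2 fold change of -3.77 ± 0.070 (SE). Array medians lay between 4.27 and 4.33, and arrays correlated within a genotype with r of at least 0.985 and across genotypes with r of at most 0.984. Of 9 measured hepatocyte markers 9 were brighter than the median probe set, and 9 rose, with a median log2 fold change of 0.73 against 0.66 for the members. Their rises ran from 0.23, for Alb, to 1.94, for Cps1, and their part in the members' changes was not tested. Most of these markers also stand on the lists of acute phase proteins and transcription factors compared below. Of 11 macrophage and Kupffer cell markers 3 were brighter than the median probe set, the highest having a mean of 5.52. None of the 11 passed the test, and their summed linear signal ran from 170 to 195 in wild-type and from 178 to 187 in knockout arrays. None of 9 stellate cell and fibroblast markers and none of 8 endothelial markers passed in limma either. At an unadjusted p of 0.05 the counts were 1 of 11 macrophage, 1 of 9 stellate and 0 of 8 endothelial markers. Of 5 bile duct markers 2 fell, with summed signals of 1537 to 1631 in wild-type and 1514 to 1635 in knockout arrays. In such bulk samples of a hepatocyte line, fewer cells that express a marker and less RNA per cell cannot be told apart.

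**Figure D1:**
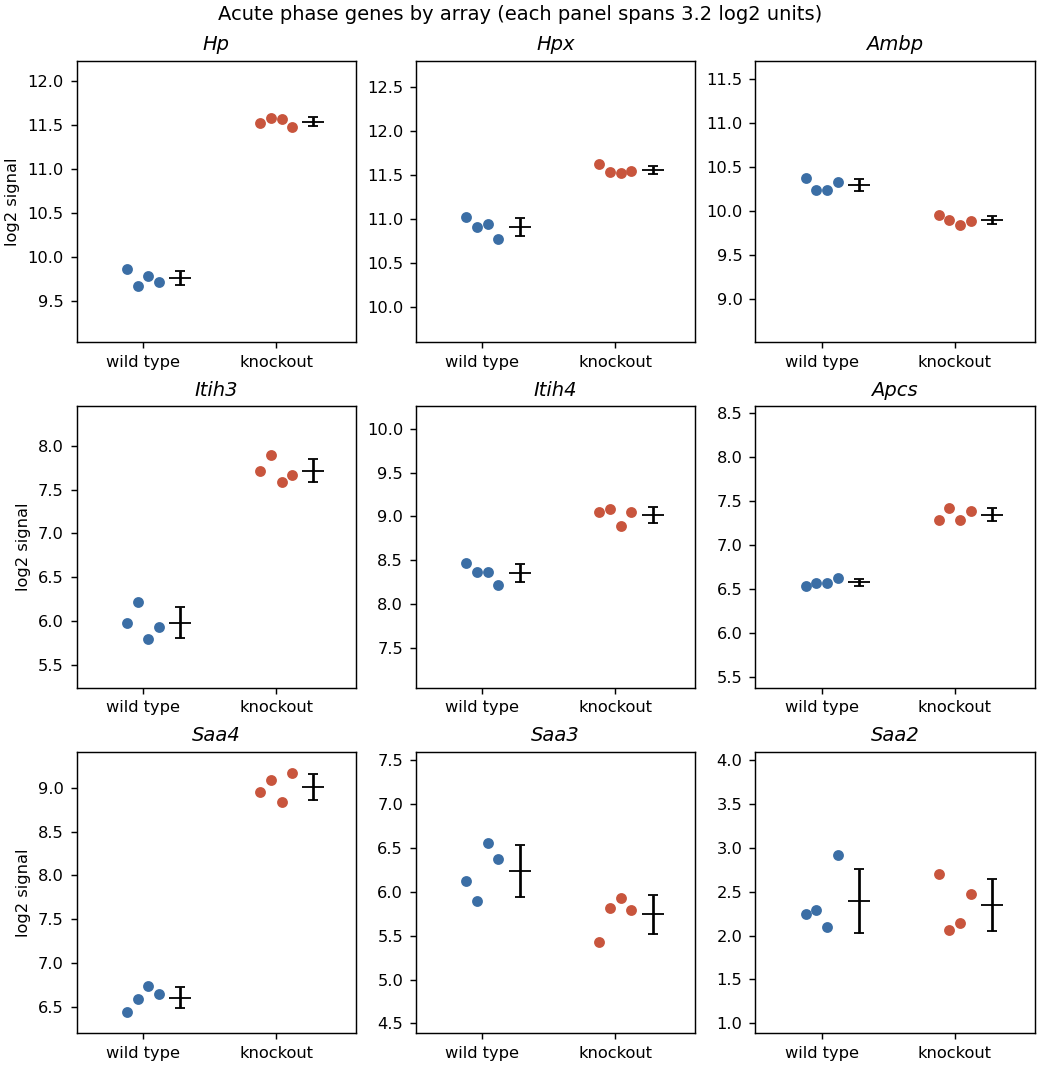
Log2 signal of the 9 measured genes on each of the 8 arrays, with 4 wild-type (blue) and 4 knockout (red) points per panel and the mean ± SD in black; the panels differ in position but span the same number of log2 units. The groups are apart in 7 panels, with Ambp lower in the knockout, and overlap for Saa3 and Saa2.

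Hp and Hpx encode the scavengers of free hemoglobin and of heme. Hp, which encodes haptoglobin, read 9.86, 9.67, 9.78 and 9.71 on wild-type arrays 1 to 4 and 11.53, 11.58, 11.57 and 11.48 on knockout arrays 1 to 4. Every knockout array lay above every wild-type array, with little spread in either group. Haptoglobin mRNA was thus 3.44-fold higher (95% interval 3.12 to 3.79), the 45th largest rise of all genes, at a limma adjusted p of 5.46e-07.

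Hpx encodes hemopexin, which binds heme that has left hemoglobin. It read 11.02, 10.91, 10.95 and 10.77 in wild-type cells and 11.62, 11.54, 11.52 and 11.54 in knockout cells. The groups were again apart, but by less: the log2 fold change was 0.65 ± 0.066 (SE, 4 arrays per group, adjusted p = 0.000173), or 1.56-fold. Within each array the log2 signal of Hp minus that of Hpx was 1.14 ± 0.052 (SE) larger in the knockout (adjusted p = 0.0343 over 6 pairs of genes, exact permutation test, two-sided). This is the smallest unadjusted p, 0.0286, that 4 against 4 arrays allow.

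Of the measured serum amyloid A genes only Saa4 passed the test. Saa4, which encodes the constitutive form carried on high density lipoprotein, read 6.45, 6.59, 6.74 and 6.65 on the wild-type arrays and 8.96, 9.09, 8.83 and 9.16 on the knockout arrays. Its lowest knockout value was 8.83 and its highest wild-type value 6.74. The rise was 5.29-fold (95% interval 4.58 to 6.11, limma adjusted p = 9.62e-07), the largest among the members and the 15th largest of 22180 genes.

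Saa3 read 6.12, 5.89, 6.56 and 6.37 in wild-type cells and 5.43, 5.82, 5.93 and 5.79 in knockout cells. The groups overlapped, since knockout replicate 3 lay just above wild-type replicate 2. The log2 fold change was -0.49 ± 0.158 (SE), with an unadjusted limma p of 0.0125 and an adjusted p of 0.0574, so the gene did not pass. It was past the threshold in 5 of 17 alternative settings. Over all 17 the limma adjusted p ran from 0.0122 to 0.131. Without wild-type replicate 2 the value was -0.61 (adjusted p = 0.0236). Saa3 is an inducible form that macrophages are known to make. The cultures were of a hepatocyte line, and no macrophage marker passed the test, as above. The source of the Saa3 signal was not tested.

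Saa2, one of the inducible liver forms, was dim throughout. It read 2.24, 2.30, 2.10 and 2.92 on the wild-type arrays and 2.70, 2.06, 2.14 and 2.48 on the knockout arrays, all below the 25th percentile of all values, 3.04. The difference was -0.04 ± 0.200 (SE), and its 95% interval, -0.50 to 0.41, leaves room for a fall of 0.50 or a rise of 0.41 at this signal. The probe set shared by Saa1 and Saa2 read 2.09, 2.48, 2.03 and 2.06 in wild-type and 1.68, 2.79, 2.50 and 1.93 in knockout cells (exact permutation p = 0.886, two-sided). Both probe sets were therefore at the dim end in either genotype, where low expression and its absence look alike. Near-identical copies such as these can also share probes.

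The members of the family differed from each other beyond the spread between arrays in 1 of the 2 pairs compared. The change of Saa4 exceeded that of Saa3 by 2.90 ± 0.174 (SE; adjusted p = 0.0343, exact permutation test, two-sided). For Saa2 against Saa3 the difference was 0.45, with a 95% interval of -0.36 to 1.27 (adjusted p = 0.286, same test). The pairs with Saa1 could not be run.

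**Figure D2:**
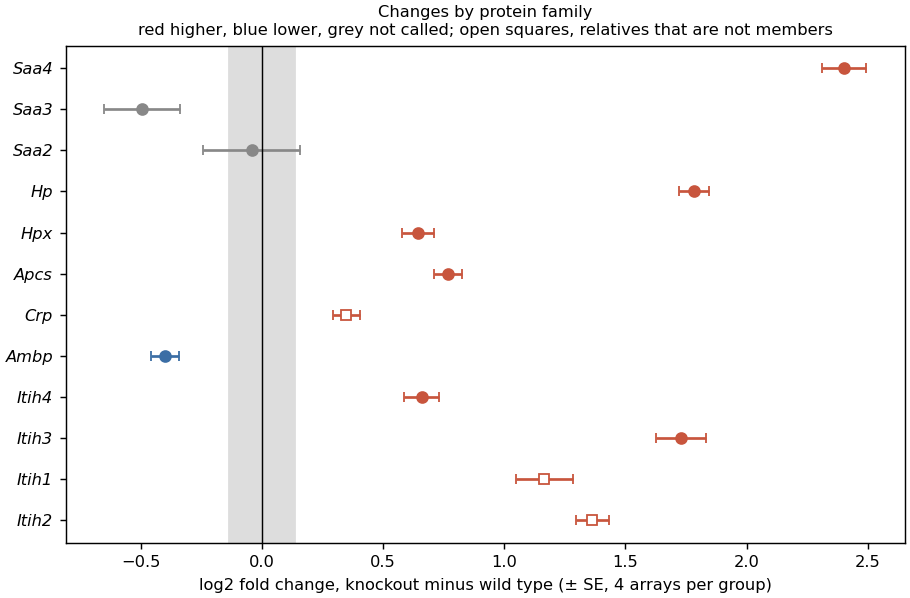
Log2 fold change of knockout against wild type (horizontal axis) for the 9 measured genes (filled circles) and for Crp, Itih1 and Itih2 (open squares), with bars for the SE; red rose, blue fell and grey did not pass, and the grey band spans plus and minus 0.14, the median absolute change of all genes. Saa4 lies furthest right at 2.40, and Ambp at -0.40 is the member that fell.

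Apcs encodes serum amyloid P, a pentraxin that binds amyloid fibrils and chromatin. It read 6.54, 6.57, 6.56 and 6.63 on the wild-type arrays and 7.28, 7.42, 7.28 and 7.39 on the knockout arrays. All wild-type values lay below all knockout values, and the rise was 1.70-fold (95% interval 1.55 to 1.87, limma adjusted p = 3.18e-05). Its neighbour on chromosome 1 is Crp, which encodes the pentraxin C-reactive protein, a weak reactant in mice. Crp rose by 0.35 ± 0.055, from 9.88 ± 0.043 (SD, n = 4) to 10.23 ± 0.048 (n = 4).

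Ambp and several Itih genes encode parts of the inter-alpha-inhibitor family of plasma complexes. Ambp gives a precursor that is cut into alpha-1-microglobulin, a heme binder, and bikunin, a protease inhibitor. The Itih genes encode heavy chains, and those of Itih1, Itih2 and Itih3 are linked to bikunin through chondroitin sulfate and passed on to hyaluronan. Itih4 encodes a heavy chain that does not bind bikunin and is cut by plasma kallikrein.

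Itih3 read 5.98, 6.22, 5.80 and 5.94 on the wild-type arrays and 7.71, 7.89, 7.59 and 7.66 on the knockout arrays. The gap between the groups was wider than the spread within either, and the rise was 3.32-fold (95% interval 2.83 to 3.89, limma adjusted p = 7.18e-06). Itih4 read 8.47, 8.37, 8.37 and 8.22 in wild-type and 9.05, 9.08, 8.89 and 9.05 in knockout cells. These groups were also apart, at 1.58-fold (95% interval 1.41 to 1.77, limma adjusted p = 0.000254). Itih3 rose by 1.07 ± 0.104 more than Itih4 on the log2 scale (adjusted p = 0.0343, exact permutation test, two-sided).

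Ambp went the other way from the heavy chains. It read 10.37, 10.23, 10.24 and 10.33 on the wild-type arrays and 9.95, 9.90, 9.84 and 9.88 on the knockout arrays, every one below the lowest wild-type value. The log2 fold change was -0.40 ± 0.059 (SE, adjusted p = 0.00127), or 1.32-fold lower (95% interval 1.20 to 1.45). Its change was below that of Itih3 by 2.13 ± 0.116 and below that of Itih4 by 1.06 ± 0.066 (adjusted p = 0.0343 for each, exact permutation test, two-sided). Ambp and each heavy chain gene had already separated the genotypes completely, in opposite directions. The exact test of these pairs could therefore only return its smallest value, and it adds nothing to the single-gene results. The bikunin precursor mRNA was thus lower in the cells in which the heavy chain mRNAs were higher.

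The heavy chain genes that are not members moved with Itih3 and Itih4. Itih2 rose by 1.36 ± 0.068, from 10.16 ± 0.070 (SD, n = 4) to 11.52 ± 0.096 (n = 4), and Itih1 by 1.17 ± 0.119, from 4.52 ± 0.197 to 5.69 ± 0.177. Itih5, which was dim in both groups, stood at 0.03 ± 0.125 and did not pass. Of the 13 measured genes on a list of this family and its hyaluronan partners, 4 rose and 2 fell, Ambp and the hyaluronan receptor Cd44, at -1.07 ± 0.072. The list includes the members Itih3, Itih4 and Ambp. The hyaluronan synthases Has1, Has2 and Has3 and the heavy chain transferase gene Tnfaip6 did not pass, with values between -0.26 and 0.17.

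Position on the chromosome was looked at because several members lie side by side. Itih4, Itih3 and Itih1 are consecutive on chromosome 14, which also carries Vwa8, in the gene order of GRCm38.p6. All 3 rose, while of the 5 nearest measured genes on either side 2 rose, 3 fell and the values ran from -0.50 to 0.26. In the Saa cluster on chromosome 7, Saa4 rose between Saa3 and Saa2, which did not pass. The 10 genes around that cluster ran from -0.25 to 0.27, and 1 of them, Ldha, passed. Around Hp the 10 nearest genes ran from -0.22 to 0.43, around Hpx from -0.48 to 0.30, around Apcs from -0.21 to 0.38 and around Ambp from -0.27 to 0.33. In each case the change of the called member was outside the range of its neighbours. On one side of Apcs these were olfactory receptor genes, all dim (wild-type means 1.22 to 2.74), and the 0.38 was from 1 of them. Crp was counted on the other side. The -0.27 near Ambp was that of Orm1, itself an acute phase gene. Ldha was named after its value was seen.

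**Figure D3:**
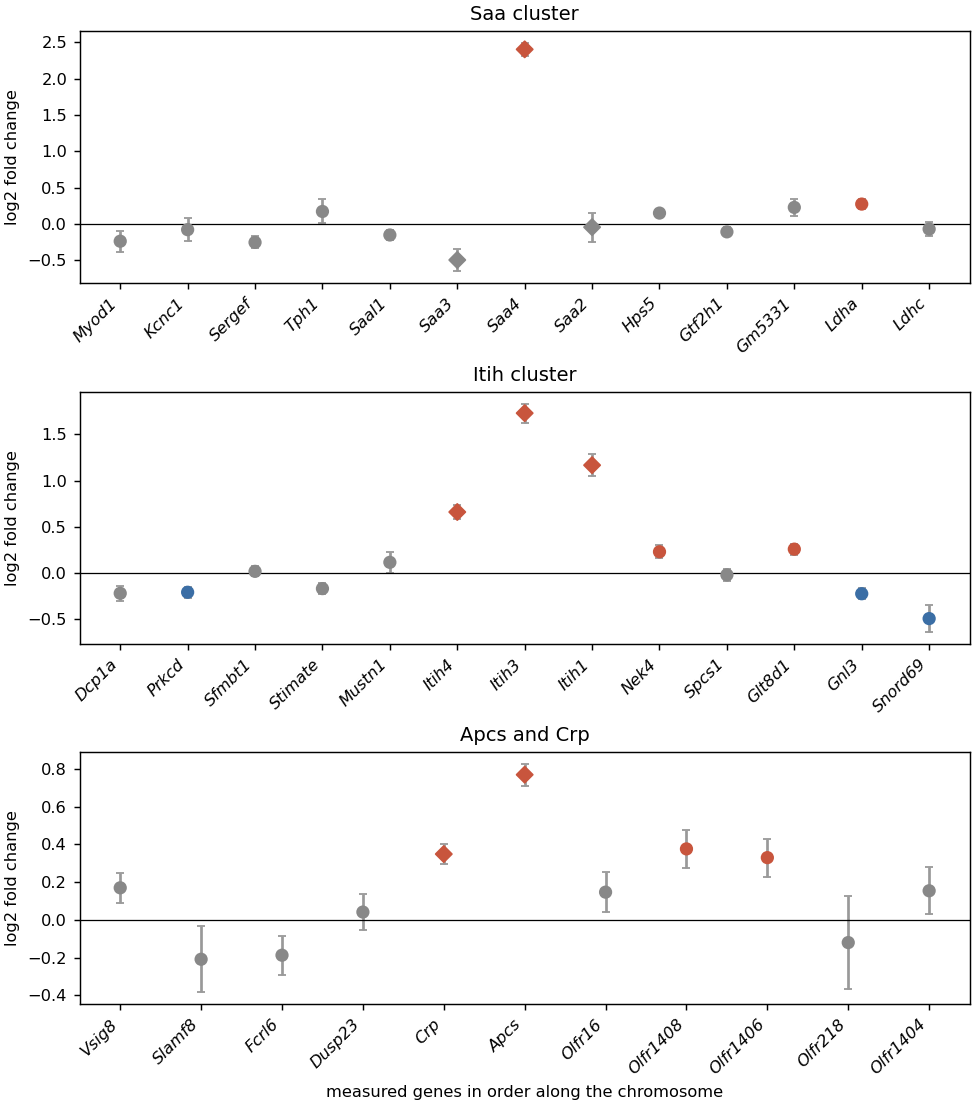
Log2 fold change with SE of the Saa cluster, the Itih cluster and the pentraxin pair Apcs and Crp (diamonds) and of the nearest measured genes on either side (circles), in their order along the chromosome; red rose, blue fell, grey did not pass. Saa4 at 2.40 and the 3 Itih genes, from 0.66 to 1.73, stand above neighbours that lie between -0.50 and 0.27.

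For each member the genes whose centred profile over the 8 arrays was nearest to its own were looked up. Nearest to Hp were Vtn, which encodes vitronectin, and Bex1, with root mean square differences of 0.065 and 0.069 log2 units. Nearest to Saa4 were Tdo2 (0.072) and Tat (0.089), the enzymes that open tryptophan and tyrosine breakdown. Itih3 lay nearest to Pemt (0.079), which makes phosphatidylcholine in liver, and to Acat3 (0.098). Hpx and Itih4 were close to each other (0.049), with Tmem150a as the other neighbour of Hpx (0.048) and Agt, which encodes angiotensinogen, as the other neighbour of Itih4 (0.052). Apcs lay nearest to Mccc1 (0.036) and Acnat1 (0.043), and Ambp to Eif4h (0.033) and Raly (0.038). For Saa3 the nearest were Tceal1 (0.098) and Car2 (0.102), and for the dim Saa2 Ankrd66 (0.107) and 1700057G04Rik (0.124). This measure is a description over 8 arrays and rests mainly on the size of the genotype difference.

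Other acute phase genes, most but not all of them for plasma proteins, were compared through lists drawn up by pathway. Of 30 other positive reactants 15 rose, 4 fell and 11 did not pass, with a median of 0.30. The 3 fibrinogen chains rose, Fga by 1.41 ± 0.081, Fgb by 1.29 ± 0.059 and Fgg by 1.86 ± 0.084, and so did Pzp, an alpha-2-macroglobulin relative, by 1.83 ± 0.074. Serpina3n, a relative of antichymotrypsin, rose by 2.32 ± 0.213. Members of the Serpina1 and Mug1 families have near-identical copies and their separate values are uncertain. The 4 that fell were Lcn2, which encodes lipocalin 2, at -0.64 ± 0.062, Cd14 at -0.45 ± 0.059, Il1rn at -0.40 ± 0.074 and Steap4 at -0.36 ± 0.086, and except for Lcn2 they were named after their values were seen. Orm1, which encodes orosomucoid, stood at -0.27 ± 0.190, and Hamp, which encodes hepcidin and was dim, at 0.41 ± 0.372. Neither passed, although Hamp stood at 0.80 (adjusted p = 0.0397) without knockout replicate 1.

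Negative reactants, which fall in inflammation, did not go the opposite way. Of 12 measured, 10 rose and 2 did not pass, with a median of 0.65, and the groups did not overlap for 10. Over all genes 10.4% rose, 20.9% passed in either direction and 26.1% did not overlap. Of the 12, 11 were brighter than the median probe set, a class of which 35.1% passed. The negative reactants that rose include hepatocyte markers already counted above, Alb and Apoa1 among them. Serpinc1, which encodes antithrombin, rose by 2.34 ± 0.079, Rbp4, the plasma carrier of retinol, by 0.92 ± 0.063, Ahsg, which encodes fetuin-A, by 0.82 ± 0.067, and Apoa1 by 0.73 ± 0.056. Of the other positive reactants 15 of 30 rose, as above.

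The receptors of the pathway moved in different directions. Of 21 genes of the interleukin 6 family and its STAT3 pathway 1 rose and 8 fell, with a median of -0.15. Il6ra, the interleukin 6 receptor, rose by 0.87 ± 0.063, from 7.62 ± 0.046 (SD, n = 4) to 8.49 ± 0.088 (n = 4). The shared subunit gp130, encoded by Il6st, stood at -0.33 ± 0.055, and the receptor subunits for oncostatin M and leukemia inhibitory factor were lower as well, Osmr at -2.72 ± 0.112 and Lifr at -0.62 ± 0.067. The phosphatase gene Ptpn6 stood at -0.60 ± 0.087. Stat3 itself, at 0.03 ± 0.056, and its feedback target Socs3, at 0.03 ± 0.099, did not pass, and their sign changed between alternatives.

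Genes of the NF-kB arm were lower where they passed, with 2 exceptions. Of 28 genes, 10 fell and 2 rose, the interleukin 1 receptor Il1r1 by 1.28 ± 0.099 and Ly96 by 0.45 ± 0.115, the latter named after its value was seen. Tnfaip3, an inhibitor that NF-kB induces, stood at -1.46 ± 0.079, Nfkb2 at -0.74 ± 0.054 and Nfkbia, the inhibitor I-kappa-B-alpha, at -0.69 ± 0.055. The cytokine genes Il6, Il1b and Tnf were dim, with knockout means of 1.81, 2.60 and 3.65, and did not pass.

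Of 20 transcription factors that act on acute phase promoters 6 rose and 5 fell. Creb3l3, a membrane-bound factor that drives Apcs, Crp and hepcidin in the stressed endoplasmic reticulum, rose by 1.06 ± 0.061, Foxa3 by 0.73 ± 0.067 and Hnf4a by 0.45 ± 0.055. Cebpb stood at -0.43 ± 0.076, Foxa1 at -0.70 ± 0.079 and Jun at -0.65 ± 0.062. Cebpd, at -0.13 ± 0.103, and the glucocorticoid receptor Nr3c1, at 0.08 ± 0.069, did not pass. Between 42.9% and 83.3% of the genes on the 7 comparison lists of plasma proteins, signalling genes, factors and partners passed in either direction, against 20.9% of all genes and 35.1% of genes brighter than the median probe set. Most genes of these lists were in that bright class, 18 of 21 on the interleukin 6 list and 23 of 28 on the NF-kB list. These were the lists with the lowest share, 42.9% of all their measured genes on each. The inter-alpha-inhibitor list holds the members Ambp, Itih3 and Itih4, so its share is not separate from theirs.

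**Figure D4:**
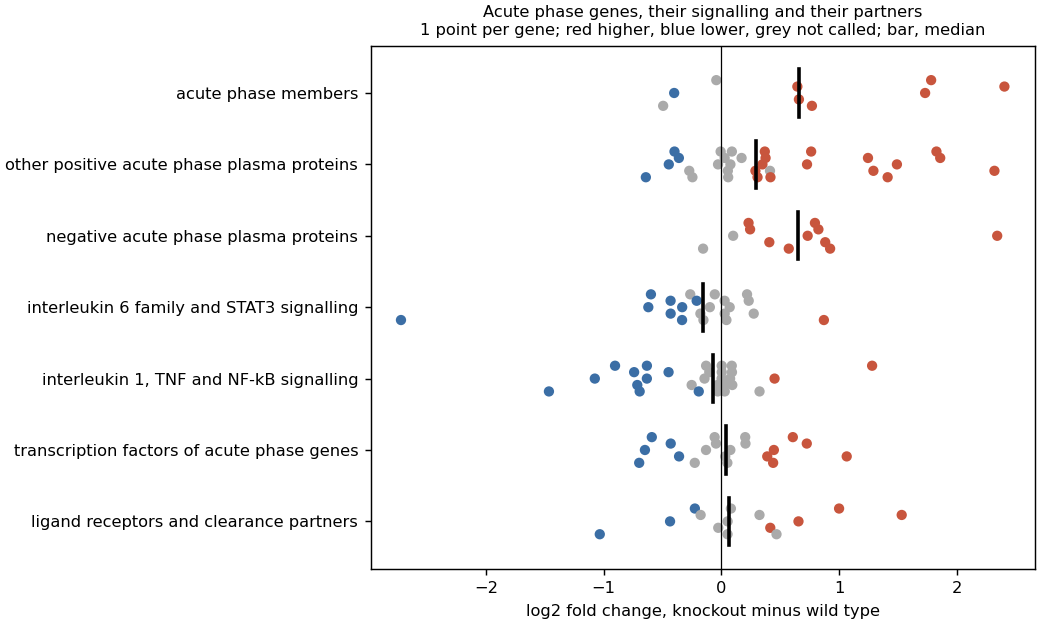
Log2 fold change (horizontal axis) of each measured gene of the acute phase set and of comparison lists, 1 point per gene. Red is for rose, blue for fell and grey for not passed, with the list median as a black bar. The list of the inter-alpha-inhibitor family and its hyaluronan partners is not drawn. The medians of the plasma protein lists lie at 0.66, 0.30 and 0.65, and those of the interleukin 6 and NF-kB lists at -0.15 and -0.07.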

How the data were processed

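Biotin-labelled RNA of 8 cultures, 4 per genotype, was hybridised to Affymetrix mouse arrays, per the labels' protocols. The authors deposited 1 log2 value per probe set and array; the log2 scale was read from the values (0.44 to 13.55), and no source used here gives the background correction or summarisation. No normalization was added. Of 41345 probe sets, 23521 carried 1 gene symbol. Genotypes were compared with limma 3.58.1 in R 4.3.3, in a model of genotype alone, with Benjamini-Hochberg adjustment over 22180 genes. The fit was tested on simulated data. These had independent noise and a far smaller share of changed genes than was called here. They check the code and not the fit under the conditions of these data. Alternatives were a replicate block, other scalings, variance models and weights, filters on dim probe sets, other probe-set rules, subtraction of neighbouring genes and leaving out each array. Pairs of members were compared by an exact permutation test of within-array differences. The members, lists and motifs were chosen with earlier results of these data known. Named were all members, Vwa8, 2 nearest profiles per member, family neighbours, up to 4 genes with the smallest adjusted p per list, and 20 measured genes of a fixed list of names. Outside this rule, and chosen after their values were seen, were Alb, Cps1, Itih5, Has1, Has2, Has3, Tnfaip6, Il6, Il1b, Tnf, Ldha, Ly96, Cd14, Il1rn and Steap4. The promoter windows came from RefSeq (GRCm38.p6), aligned with Biopython 1.88, and figures from matplotlib 3.10.9. Nothing in the labels says more of the cultures than that they were separate, so p-values measure the spread between these samples. The number of arrays limits the precision.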

Additional observations from a re-analysis of the deposited data

Results flagged for a closer look

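Among 132 groups of 4 arrays (66 named genes in 2 genotypes) 5 held an array far from the other 3, where chance gives about 1 in 20, and none of the 18 groups of the acute phase members did. Orm1 read 5.93 on wild-type replicate 2 and 6.40 to 6.47 on the others. Il6ra read 8.62 on knockout replicate 2 and 8.42 to 8.46 on the others. Fgg read 8.39 on knockout replicate 1 against 8.60 to 8.63. Ahsg read 10.37 on wild-type replicate 4 against 10.53 to 10.54. The gene 1700057G04Rik, dim throughout, read 2.79 on wild-type replicate 4 against 2.16 to 2.24.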

How the results depend on the processing

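The 7 called members (6 higher, 1 lower) kept their direction and passed in all 17 alternatives run for each. Hp ran from 1.71 to 1.82, Saa4 from 2.35 to 2.47, Itih3 from 1.67 to 1.86, and Ambp from -0.46 to -0.37. The number of members lower was 2 instead of 1, by Saa3 passing, with the replicate block, with an intensity trend and robust variances, and without the dimmest 25% or 50% of probe sets; it ran from 1 to 2 when single arrays were left out. The replicate block gave 1890 genes higher and 1827 lower. Same-numbered arrays correlated in their deviations with r between -0.002 and 0.059, so the numbers were not taken as pairs. Of the list counts, interleukin 6 genes higher went from 1 to 2 in 3 settings (intensity trend, without the dimmest 50%, without wild-type replicate 1), NF-kB genes higher from 2 to 1 without wild-type replicate 3 or knockout replicate 4, and other positive reactants lower from 4 to 2 without the dimmest 50%. Of the other named genes that passed, Tceal1 (-0.41, adjusted p = 0.0494) missed in 10 of 16 alternatives (adjusted p 0.0213 to 0.160 over all 16). Car2 (-0.38, adjusted p = 0.0958), which had not passed, did so in 4 of 17 (0.0326 to 0.211 over all 17). A second probe set could not be tried for the members, which have 1 each. For the same reason averaging a gene's probe sets left the members' log2 fold changes unchanged, though that setting is among the alternatives counted. With an array left out the exact test of a pair cannot go below 0.0571, so those values carry no call. Dim signal limits Saa2 and the probe set shared with Saa1.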

Other observations

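Genes of the receptors and partners through which acute phase proteins are bound or cleared were also measured. Of 14, 4 rose and 3 fell. Asgr2, a subunit of the hepatocyte receptor for desialylated glycoproteins, rose by 1.53 ± 0.086, Cd36, a scavenger receptor that binds serum amyloid A, by 1.00 ± 0.084, and Lrp1, the receptor for hemopexin with heme, by 0.65 ± 0.054. Cd163, the macrophage receptor for haptoglobin with hemoglobin, was dim, at 3.34 to 3.52 in wild-type and 3.26 to 3.61 in knockout cells, and did not pass. Hbegf, a ligand of the EGF receptor, stood at -1.03 ± 0.073.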
